A study of Homo sapiens with 6 samples.

Results

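The regions described here are 789 H3K27ac peaks of the T-cell acute lymphoblastic leukaemia (T-ALL) line 6T-CEM that lie in long stretches of the genome where Jurkat, a second T-ALL line, had no H3K27ac peak at all. They were found by pooling the peaks of both Jurkat libraries on chromosomes 1 to 22 and X, taking each gap between consecutive Jurkat peaks, and keeping the gaps of 500 kb or more that held 10 or more 6T-CEM peaks. That left 52 stretches and 789 of the 35154 6T-CEM peaks, or 2.24%. Since the rule reads the peak positions of both lines, the absence of Jurkat peaks and the number of 6T-CEM peaks in a stretch are how the regions were chosen and not a result. They are given as a description, with no test.

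The series holds 6 samples, of which 1 H3K27ac library from 6T-CEM and 2 H3K27ac libraries from Jurkat were used, and 3 IgG samples were not used here. All are labelled as T-ALL cells, and the labels name no genetic change. GNE-987, an inhibitor of BET bromodomain proteins, is in the series title, and the design text mentions a treatment at 10 nM for 24 h, but no sample label says which cells were treated, so cell line and treatment cannot be told apart. With 1 H3K27ac library of 6T-CEM there is no measure of its spread, so no test between the lines was run, and the difference between the Jurkat libraries stands beside the results instead.

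Acetylation of lysine 27 on histone H3 marks active promoters and enhancers. Runs of closely spaced peaks along or beside a gene are a common picture of strongly used regulatory regions. 2 of the genes in the stretches are known parts of transcriptional repression in T-cell development. HES1 encodes a basic helix-loop-helix repressor that NOTCH signalling switches on in early T-cell precursors and in T-ALL, through the DNA-binding protein RBPJ at its promoter. TLE1 encodes a corepressor of the Groucho family, which has no DNA binding of its own and is recruited by HES proteins, RUNX factors and others.

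The 250 bases before the start site are shown for 6 genes of the stretches, because HES1 and TLE1 are the regulators named above and SPRY1, DUSP6, TEC and DAPK1 carry results below, each with a 6T-CEM peak over or beside its start and no Jurkat peak within 25 kb of either end. The sequences are from RefSeq (GRCh38.p14), 5′ to 3′ on the gene's strand, from chr3:194135898-194136147 (plus strand) for HES1, chr9:81689548-81689797 (minus strand) for TLE1, chr4:123396545-123396794 (plus strand) for SPRY1, chr12:89352502-89352751 (minus strand) for DUSP6, chr4:48269839-48270088 (minus strand) for TEC and chr9:87497617-87497866 (plus strand) for DAPK1. Capitals mark TGGGAA, the letters of the RBPJ site, and CACGCG and CACNAG, the class C site and the N-box bound by HES proteins, on either strand.
HES1: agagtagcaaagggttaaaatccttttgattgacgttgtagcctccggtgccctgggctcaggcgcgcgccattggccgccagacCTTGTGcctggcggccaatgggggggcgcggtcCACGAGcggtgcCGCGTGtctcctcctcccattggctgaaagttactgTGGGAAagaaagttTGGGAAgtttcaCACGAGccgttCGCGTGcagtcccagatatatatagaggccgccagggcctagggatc
TLE1: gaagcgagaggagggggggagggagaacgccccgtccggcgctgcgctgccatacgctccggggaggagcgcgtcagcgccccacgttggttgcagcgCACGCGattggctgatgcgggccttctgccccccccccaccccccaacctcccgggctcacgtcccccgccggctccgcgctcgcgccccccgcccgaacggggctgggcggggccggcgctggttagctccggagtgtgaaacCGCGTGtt
SPRY1: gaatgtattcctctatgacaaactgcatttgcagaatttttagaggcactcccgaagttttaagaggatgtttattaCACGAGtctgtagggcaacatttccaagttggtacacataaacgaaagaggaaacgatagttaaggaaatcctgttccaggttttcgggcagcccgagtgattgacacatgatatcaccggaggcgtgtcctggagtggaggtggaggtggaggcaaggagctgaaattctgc
DUSP6: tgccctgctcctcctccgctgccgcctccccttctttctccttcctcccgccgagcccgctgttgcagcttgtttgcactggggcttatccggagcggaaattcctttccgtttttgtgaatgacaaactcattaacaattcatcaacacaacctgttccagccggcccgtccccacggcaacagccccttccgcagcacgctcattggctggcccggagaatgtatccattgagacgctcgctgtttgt
TEC: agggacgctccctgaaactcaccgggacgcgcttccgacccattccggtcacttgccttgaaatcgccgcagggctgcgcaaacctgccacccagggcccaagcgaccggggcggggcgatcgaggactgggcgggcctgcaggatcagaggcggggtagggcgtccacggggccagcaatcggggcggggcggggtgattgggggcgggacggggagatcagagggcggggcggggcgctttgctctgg
DAPK1: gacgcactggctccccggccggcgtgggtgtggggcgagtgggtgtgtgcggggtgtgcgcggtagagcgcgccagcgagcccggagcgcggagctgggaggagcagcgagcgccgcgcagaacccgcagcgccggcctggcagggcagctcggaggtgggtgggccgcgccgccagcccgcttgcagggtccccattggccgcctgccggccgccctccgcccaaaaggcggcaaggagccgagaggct

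The HES1 window held TGGGAA in 2 places, with first bases 84 and 70 bp before the start site, and CACNAG in 3 places, 165, 132 and 58 bp before it. In mouse, such sites in the Hes1 promoter are known to carry its response to NOTCH and its repression by its own product. The ETS letters GGAAGT occurred once and overlapped the nearer TGGGAA. At least 1 TGGGAA was found in 20.2% and 2 or more in 2.64% of 15812 such windows across the genome, and CACNAG in 30.5%. CACGCG, added to the search after the other motifs had been counted, occurred in 2 places at HES1, 120 and 47 bp before the start, and in 2 at TLE1, 152 and 8 bp before it, and in 12.6% of all windows at least once. SPRY1 held 1 CACNAG, 173 bp before its start. TLE1 and SPRY1 held no other of the 8 motifs searched on both strands, and DUSP6, TEC and DAPK1 held none. The search also covered the class B E-box CACGTG, the RUNX core TGTGGT, the E-box letters CAGCTG, and for GATA factors the run AGATAA. A match is a run of letters and not a shown binding site.

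The stretches were found on 18 chromosomes, were 0.512 to 10.8 Mb long with a median of 1.45 Mb, and covered 107.4 Mb together. They are 0.146% of all 35583 Jurkat gaps and 4.66% of the 1117 gaps of 500 kb or more. Of those longer gaps, 427 held no 6T-CEM peak, 526 held 1 to 4 and 112 held 5 to 9. Each kept stretch had 10 to 42 peaks with a median of 12.5, and 16 stretches stood exactly at the limit of 10. The 10 stretches with 20 or more peaks held 263 of the 789. Just outside the limits lay 6 long gaps with 9 peaks each and 2 gaps of 402.4 and 435.7 kb with 18 and 13 peaks. Just inside lay the stretches at NBAS (511.7 kb), at MSRA and PINX1 (556.5 kb) and at HES1 (579.0 kb), so the densest stretch of all was also among the shortest.

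**Figure D1:**
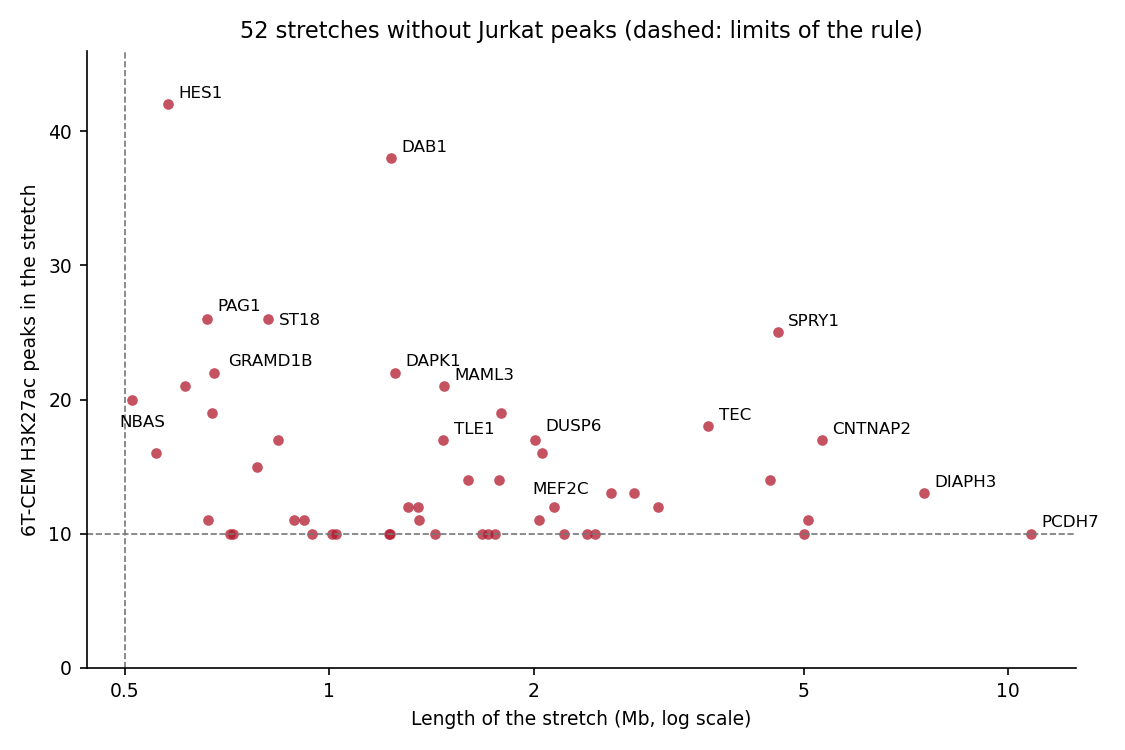
Each point is 1 of the 52 stretches without Jurkat peaks, by its length (Mb, log scale) and its number of 6T-CEM H3K27ac peaks, named for a gene in it, with the limits of 500 kb and 10 peaks dashed. HES1 holds 42 peaks in 0.579 Mb, at the top left, while the longest stretch, at PCDH7, holds 10 in 10.8 Mb.

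Chromosome 4 held the most, with 7 stretches, 109 peaks and 26.7 Mb, which was 9.94% of its 1097 6T-CEM peaks. Chromosome 18 followed with 7.21% of 555 and chromosome 8 with 6.78% of 1003. Chromosomes 15, 17, 20, 21 and 22 held none. On chromosome 4 the 6T-CEM list was 1.99 times as long as that of Jurkat replicate 2 and 2.44 times as long as that of replicate 1, whereas over all chromosomes these ratios were 1.10 and 2.18.

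At HES1, all 42 6T-CEM peaks lay downstream of the start site, within 31.0% of the stretch, and covered 50373 bp (72.5 peaks per Mb). None lay over the start site itself or in the 250 bases before it. The first peak, at chr3:194136899-194138312 with a fold of 4.88, began 751 bp inside the gene. By fold is meant the enrichment over the peak caller's background, the authors' own value for each peak. Within 25 kb of the HES1 ends, 6T-CEM peaks covered 5301 bp and those of both Jurkat libraries 0 bp.

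Joining peaks 12.5 kb or less apart gave 4 clusters. The nearest spanned 0.751 to 6.78 kb from the start with 3 peaks, the last of which had a fold of 14.2, the highest of the stretch. A second cluster of 4 peaks spanned 25.4 to 34.5 kb. The third, of 9 peaks at 57.6 to 90.1 kb, reached a fold of 13.3 in a peak of 2320 bp. The fourth, nearer to the coding gene CPN2 than to HES1, spanned 111.6 to 179.9 kb and held 26 peaks over 32539 bp. Its peaks were mostly lower, but one of 986 bp at chr3:194309869-194310854 reached 14.0 and one at chr3:194304579-194309132 was, at 4554 bp, the widest of all 789. Ranked by the sum of width times fold among 13075 such clusters of the 6T-CEM list, the 4 stood at 920, 2542, 440 and 133, so the one farthest from the gene ranked highest.

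The region between HES1 and the next coding gene, CPN2, carries long non-coding RNA genes. Peaks overlapped LINC02036 in 9 cases, LINC02037 in 5, LINC00887 in 5 and LINC02048 in 1. In the 1 Mb on either side of the stretch, 6T-CEM had 66 peaks, and Jurkat replicates 1 and 2 had 5 and 12. The coding gene ATP13A3 crosses its right border, and the nearest coding genes wholly outside are OPA1 and TMEM44.

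**Figure D2:**
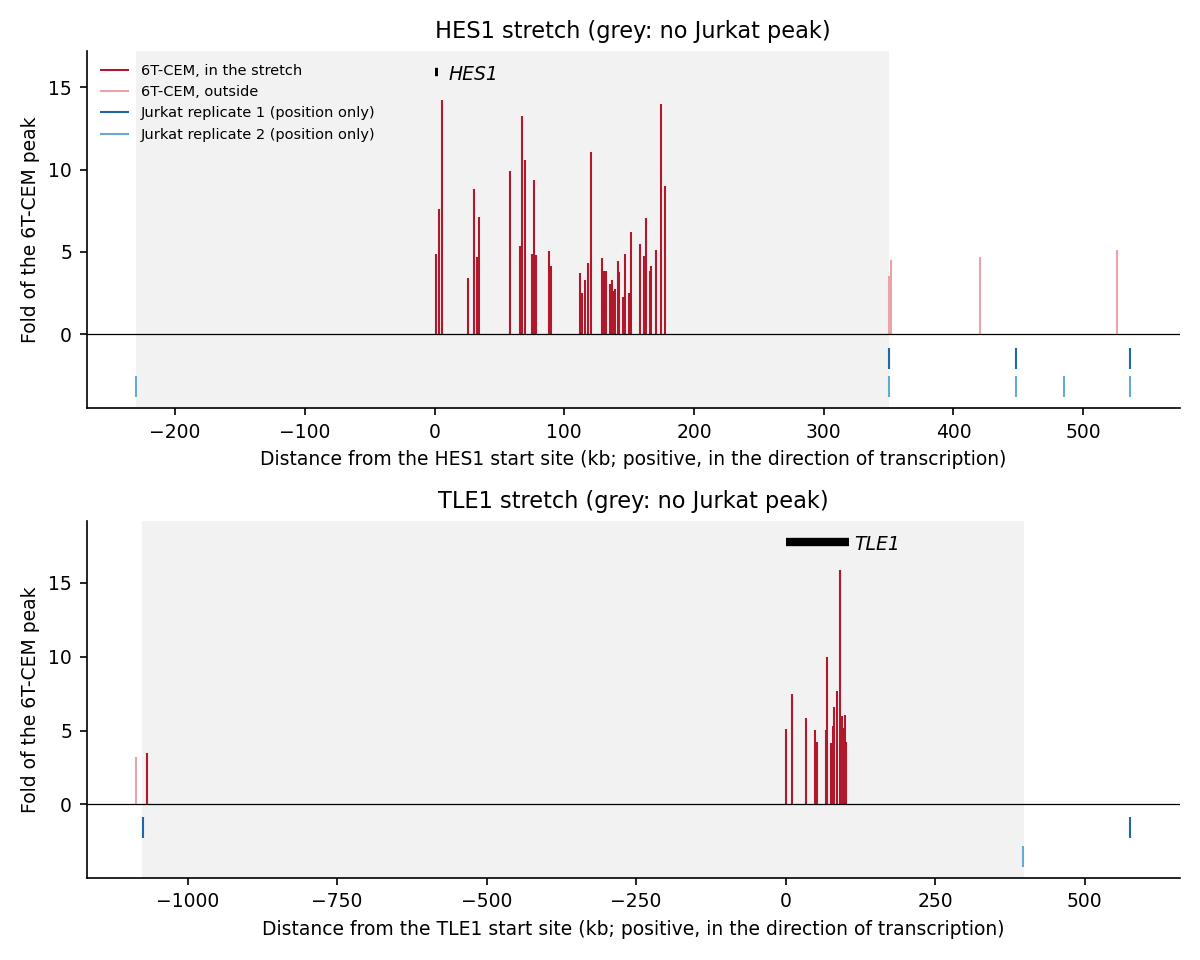
Peaks around HES1 (top) and TLE1 (bottom), by distance from the start site in kb, positive in the direction of transcription. Red lines give the fold of each 6T-CEM peak, blue ticks the positions of Jurkat peaks, black bars the genes, and grey the stretches. Peaks of the HES1 stretch run from the gene to 179.9 kb downstream, while 16 of the 17 in the TLE1 stretch lie within TLE1.

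TLE1 showed the other layout, with peaks along the gene itself. Its stretch, 1.47 Mb on chromosome 9, held 17 6T-CEM peaks, of which 16 lay in the 105.9 kb gene and covered 14020 bp of it. A peak of 2795 bp at chr9:81687204-81689998 covered the start site with a fold of 5.10. The highest, at chr9:81596876-81599492, reached 15.9 and lay 90.1 to 92.7 kb into the gene, near its far end. It belonged to a cluster of 11 peaks ranked 469 among the 13075. The remaining peak stood at −1068 kb from the start, before the gene, with a fold of 3.48. Within 25 kb of the TLE1 ends, 6T-CEM peaks covered 10506 bp and those of both Jurkat libraries 0 bp. Beside the stretch, 6T-CEM had 17 peaks, and Jurkat replicates 1 and 2 had 7 and 8.

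The related genes of both families were read from lists, chosen with earlier results of these data known. Of 24 genes of the HES and HEY families and the NOTCH pathway, 2 lay in stretches, HES1 and the gene of the NOTCH coactivator MAML3. Both were left out of the next count, since the rule sets Jurkat to 0 bp there. In 8 of the other 22 (36.4%), 6T-CEM peaks within 25 kb covered more bases than those of both Jurkat libraries, and in 1 (4.55%), HES7, fewer. Over all 19627 protein-coding genes outside the stretches the shares were 35.3% and 11.3%, so the first is near the background. NOTCH1 had 43924 bp in 6T-CEM, against 5078 and 32551 bp in Jurkat replicates 1 and 2. HEY1, HEYL, HES6 and RBPJ had 0 bp in all 3 libraries.

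Of the 6 TLE genes, 1 lay in a stretch. In 3 of the other 5, 6T-CEM covered more bases than both Jurkat libraries, and in 0 fewer, beside the same 35.3% and 11.3% over all genes. TLE4, the nearest coding gene to the left of the TLE1 stretch, had 2791 covered bp in 6T-CEM, against 0 bp in either Jurkat library, and TLE3 had 3935 bp, against 2401 and 3030 bp. Of the 4 MEF2 genes, which encode MADS-box transcription factors, MEF2C lay in a stretch, and MEF2A, MEF2B and MEF2D had more covered bases in 6T-CEM than in either Jurkat library, beside 35.3% of all genes. Of all protein-coding genes 1.74% overlap a stretch, so the counts of 0 that follow are near the background. Of 12 housekeeping genes 0 lay in a stretch, and 3 had more bases in 6T-CEM than in both Jurkat libraries and 4 fewer. The markers of T cells (10 genes), B cells (5), myeloid cells (5), erythroid cells (4), NK cells (4) and non-blood tissue (6) also had 0 genes in a stretch. Of the 10 T-cell markers, 9 were marked within 1 kb of an end in 6T-CEM, and 6 and 9 in Jurkat replicates 1 and 2. By covered bases, 3 T-cell markers had more in 6T-CEM than in both Jurkat libraries and 4 fewer. Those counts were 1 and 0 for B-cell, 3 and 1 for myeloid, and 0 and 1 for erythroid markers. For NK cells they were 1 and 0, and for non-blood tissue 2 and 0.

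The further genes are grouped by known role, a grouping made after their values were seen. MAML3, the NOTCH coactivator gene named above, held 15 of the 21 peaks of its 1.48 Mb stretch, up to a fold of 9.44. They began 2484 bp from its start site, and 8 of them lay between 53.0 and 83.5 kb into the gene. Both ends of MAML3 together had 662 covered bp within 25 kb in 6T-CEM, against 0 bp in either Jurkat library.

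MEF2C, a transcription factor gene of lymphoid progenitors, held 4 of the 12 peaks of its 2.14 Mb stretch, and its start lay under a peak of 317 bp with a fold of 2.69. A cluster of 5 peaks at chr5:88660677-88676281 had folds up to 9.76 and lay outside the gene, 206.9 to 222.5 kb downstream of that start. BCL3, which encodes a nuclear partner of NF-kB, held 3 peaks with folds up to 4.32.

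Among genes of lymphocyte signalling, TEC and PAG1 held most peaks of their stretches, and the others named held 0 to 3. TEC, a cytoplasmic tyrosine kinase of antigen receptor signalling, held 15 of the 18 peaks of its 3.61 Mb stretch, and all 18 fell within 9.91% of that length. Its start lay under a 1382 bp peak with a fold of 5.82, and the highest peak, at 57.6 to 58.2 kb into the gene, reached 16.2. The neighbouring gene TXK encodes a related kinase of T cells and held 1 peak with a fold of 10.2. The stretch also holds a run of GABA receptor genes, which act in neurons.

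PAG1, a membrane adaptor that restrains SRC-family kinases in T cells, held 19 of the 26 peaks of its stretch, up to a fold of 9.76. The stretch's highest peaks, with folds of 16.2 and 14.1, lay 18238 and 20487 bp outside the gene. CBLB, a ubiquitin ligase that limits T-cell activation, had one of fold 5.13, its neighbour ALCAM, an adhesion molecule, 2 of up to 6.37, and MALT1, a protease of antigen receptor signalling, one of 3.45. NFKBIZ, an inducible regulator of NF-kB, had its start under a peak of fold 6.35 and the B-cell scaffold gene BANK1 under one of 3.98. KITLG, the ligand of the KIT receptor, lay in a stretch and had 0 covered bp in all 3 libraries.

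The stretch that ends in the T-cell receptor beta locus on chromosome 7 held 11 peaks, of which 8 lay in the annotated locus and covered 12065 bp. The widest, 3366 bp at chr7:142298267-142301632 with a fold of 12.7, lay over the variable segments TRBV1 and TRBV2, and the other 7 had folds of 5.24 to 11.3. This locus is rearranged in T cells, by joining of variable segments to the joining segments further along.

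Among genes of growth factor signalling, SPRY1 and DUSP6 encode feedback inhibitors of the RAS-ERK pathway. The 4.58 Mb stretch at SPRY1 held 25 peaks, of which 2 lay in this short gene of 6.97 kb. One of 3293 bp covered its start with a fold of 7.19. The highest fold of all 789 peaks, 21.0, belonged to a peak of 2015 bp at chr4:123346178-123348192, at −50.6 to −48.6 kb from the SPRY1 start and 26745 bp from AFG2A. It stood in a cluster of 10 peaks that ranked 503. At DUSP6, a peak of 4040 bp covered the start with a fold of 5.48, and a peak 113.5 to 114.0 kb downstream reached 17.1. Within 25 kb, SPRY1 had 5161 bp and DUSP6 5792 bp in 6T-CEM, and both had 0 bp in each Jurkat library.

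GRB10, an adaptor of insulin and growth factor receptors, held 13 peaks with folds of up to 6.83. EPHA1, an ephrin receptor gene, had its start under a peak of 4435 bp, the second widest of all, with a fold of 7.01. Within 25 kb, the windows of this gene reach past the border of the stretch, and hold 11734 bp in 6T-CEM, against 929 and 1406 bp in Jurkat replicates 1 and 2.

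Regulators of small GTPases and of adhesion had fewer peaks each. ARHGAP18, a GTPase-activating protein gene, held 4 with folds of up to 9.41, and its start lay under one of 3.58. DOCK4, an activator of RAC, held 3, the highest at 6.84, and PTPRM, a receptor phosphatase of cell contacts, held 7, the highest at 10.3. The kinase gene MAP4K3 had a single peak 66 bp from its start with a fold of 2.87. At SOS1, which activates RAS, the peak 40 bp from the start had a fold of 2.51 and stood just inside the border, and Jurkat replicate 1 had 690 covered bp within 25 kb on the other side of that border.

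DAPK1, which encodes a calcium-dependent kinase that promotes cell death, held 30 peaks over 23638 bp of its 211.4 kb, in 2 stretches, 22 in one and 8 in the next, parted by a single peak of Jurkat replicate 1 with a fold of 4.97. Its start lay under a peak of 1826 bp with a fold of 4.92, and the highest, 21.0 to 22.7 kb into the gene, reached 11.2. Near its 2 ends 6T-CEM peaks covered 9160 bp and those of both Jurkat libraries 0 bp.

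Some of the longest human genes held peaks of the stretches, which at DAB1 and CTNNA2 all lay far from the start. DAB1, an adaptor of reelin signalling known from neurons, held all 38 peaks of its stretch, with folds of up to 17.5, and the nearest was 386324 bp from its start. The gene is 1552 kb long and crosses the borders of the stretch. Within 25 kb of its ends, outside the stretch, 6T-CEM had 1490 bp, against 736 and 560 bp in the Jurkat libraries. WWOX, a fragile-site gene with tumour suppressor activity, held 18 peaks, the nearest 175 bp from its start. PARD3, a cell polarity gene, held 21, of which 1 lay within 1 kb of a gene end. CTNNA2, a catenin gene of neurons, held 10. At CTNNA2 the nearest peak stood 810100 bp from the start. CNTNAP2, a neuronal adhesion gene of 2304 kb, held 3 peaks, one with a fold of 15.8, and the nearest stood 13238 bp from its start.

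Genes of transcription and chromatin included ST18, a zinc finger factor gene with 23 peaks up to a fold of 8.55, and KAT6B, a histone acetyltransferase gene with 11 peaks and its start under one of 3.86. ZNF521, a zinc finger gene of haematopoietic progenitors, held 7 peaks, the highest at 15.0. CELF2, which encodes an RNA-binding splicing regulator of lymphocytes, held 8 of the 13 peaks of a stretch that begins beyond GATA3, a master gene of T-cell fate. The other 5 lay 290823 to 378425 bp from GATA3, with folds of 4.89 to 11.5. Jurkat peaks outside the stretches lay within 25 kb of the ends of some of these genes. In replicates 1 and 2 they covered 1746 and 1562 bp at ZNF521 and 2296 and 1694 bp at CELF2. At KAT6B they covered 0 and 372 bp, and at ST18 0 bp in both.

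In metabolism and transport, NBAS, involved in transport between the Golgi and the endoplasmic reticulum, held all 20 peaks of its stretch, with 13 of them between 414.0 and 464.6 kb into the gene. Outside the stretch, Jurkat replicate 2 had 562 covered bp within 25 kb of the NBAS ends. GRAMD1B, a cholesterol transporter gene, held 20 peaks and had none within 25 kb of either end. FAR2, a fatty acyl reductase gene, held 11, and its start lay under a peak of 2193 bp with a fold of 9.10. The hexokinase gene HK2 held 4 peaks up to a fold of 6.41, the peptide amidation gene PAM 7 up to 9.83, and the vitamin B12 receptor gene CUBN 9 up to 12.0.

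The lipid flippase gene ATP8B1 held 9 peaks with folds of up to 7.27, and ATP2B1, a calcium pump gene, had 1, over its start, with a fold of 3.15. HPGD, which breaks down prostaglandins, held 2, one of them over its start with a fold of 3.99. FNIP2, a folliculin partner in nutrient sensing, held 11 peaks, the highest at 10.3, and its start lay under a 1284 bp peak with a fold of 3.08. MSRA, which repairs oxidised methionine, and the telomerase inhibitor gene PINX1 shared a stretch and held 8 and 7 peaks. ST6GALNAC3, a sialyltransferase gene, held 7. Jurkat peaks outside the stretches also lay within 25 kb of the ends of some of these genes. In replicates 1 and 2 they covered 1020 and 1374 bp at FNIP2 and 708 and 987 bp at ATP8B1. At MSRA they covered 0 and 474 bp, and at PINX1 601 and 0 bp.

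**Figure D3:**
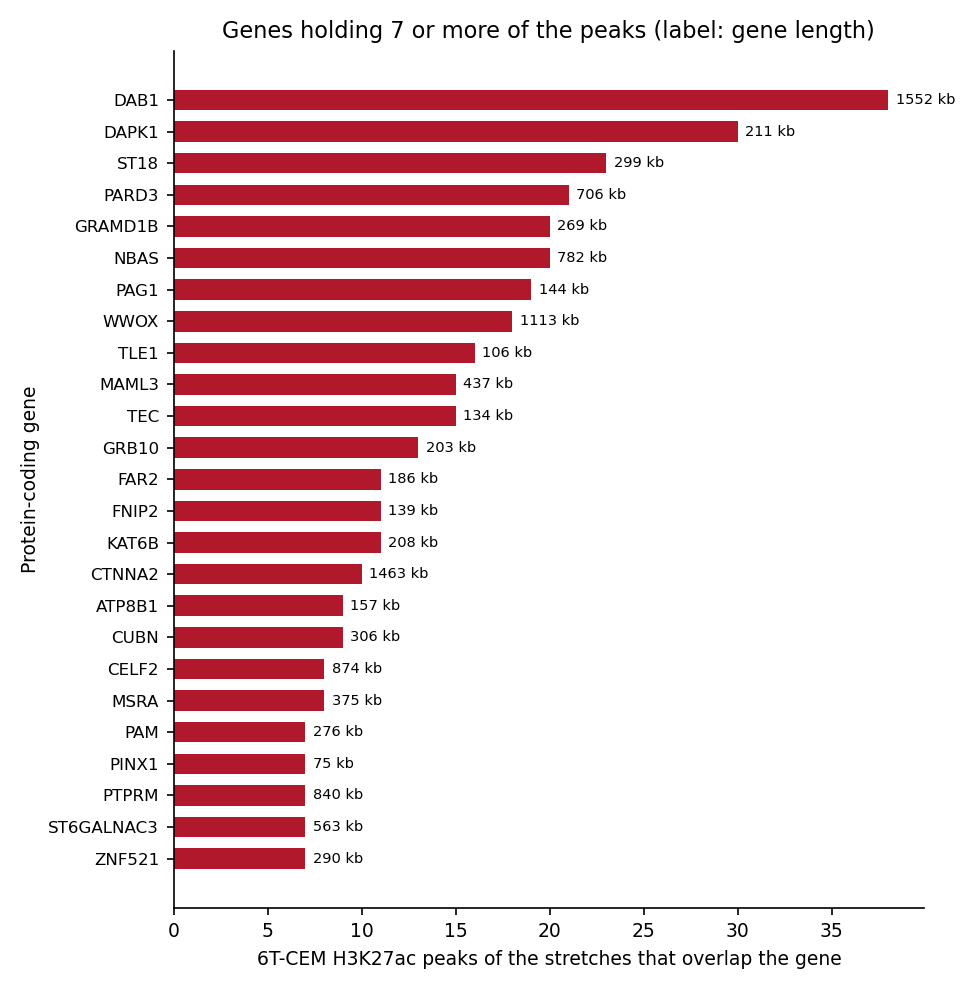
The bars give, for each protein-coding gene that held 7 or more of the 789 peaks, how many 6T-CEM H3K27ac peaks of the stretches overlap it, with the gene's length in kb beside the bar. DAB1 (38 peaks, 1552 kb) and DAPK1 (30 peaks, 211 kb) stand at the top.

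The 2 stretches on chromosome 19 had many of their peaks at gene ends. They hold clusters of KRAB zinc finger genes, many of which encode repressors of transposable elements. In the first, 8 of 12 peaks lay within 1 kb of a gene end, at ZNF14, ZNF506, ZNF253, ZNF93, ZNF90, ZNF486, ZNF737 and ZNF85. The ZNF93 start lay under the highest, with a fold of 10.3, and ZNF737 had the lowest of these, 2.75. In the second, 4 of 10 did. There, ZNF230, ZNF224 and ZNF234 had peaks with folds of 5.13, 6.84 and 6.84.

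In several other stretches most of the peaks stood between genes. At MTX2, beside HOXD1, all 10 lay within 8.75% of the 941.9 kb, with folds of 2.44 to 8.30, and none was in a protein-coding gene. In the 7.51 Mb at DIAPH3, 12 of 13 peaks lay 6360 to 223426 bp from that gene. On chromosome 16, a cluster of 5 peaks stood 135636 to 145057 bp from HS3ST4. The stretch on X held 10 peaks, all between genes, with folds of 3.58 to 9.32. Unlike these, the 10.8 Mb stretch at PCDH7 had only 3 of its 10 peaks between genes. All 10 lay in or beside ARAP2, DTHD1 and RELL1, within 14.4% of its length. On chromosome 3, 6 peaks with folds of 3.77 to 8.98 lay 159485 to 440639 bp from TBL1XR1, a corepressor subunit gene outside the stretch. On chromosome 14, 7 of 10 peaks lay between ARHGAP5 and AKAP6, the highest of them with a fold of 10.5. On chromosome 18, 9 of 10 peaks of the stretch between NETO1 and TIMM21 stood between genes, up to a fold of 8.98.

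Over all 52 stretches the peaks were often close together. In 29 stretches at least 80% of the peaks fell in one window of 500 kb, and in 4 all fell within 10% of the length. In 26 stretches 1 gene held at least 50% of the peaks, and in 4 it held all. Joining at 12.5 kb gave 329 clusters, of which 200 were single peaks and 31 had 5 or more. By width times fold, 6 of them (1.82%) passed the point where the ranked curve of all 13075 clusters has a slope of 1, against 585 (4.47%) of all. These clusters use peak values only and no read signal.

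Peaks of the stretches were set beside the other 6T-CEM peaks: 19188 that overlap a Jurkat peak by at least 1 base and 15177 that do not but lie elsewhere. In all, 45.4% of the 6T-CEM peaks overlap no Jurkat peak. The median fold was 5.14 in the stretches, 4.86 in peaks shared with Jurkat and 4.46 in the other unshared ones. For scale, the median folds of the whole lists of Jurkat replicates 1 and 2 were 5.175 and 4.327. With the stretches found without Jurkat replicate 2, their median was 4.56. A fold of 10 or more was reached by 61 of the 789, or 7.73% (95% Clopper-Pearson interval 5.97 to 9.82). The share was 6.72% in shared peaks, 2.25% in other unshared peaks and 4.81% in the whole list. The stretches' peaks were narrow, with a median of 528 bp, against 882 and 494 bp, and 3.55% were 2000 bp or wider, against 15.0% and 2.10%. The median −log10 q was 8.53, against 10.5 and 6.55.

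**Figure D4:**
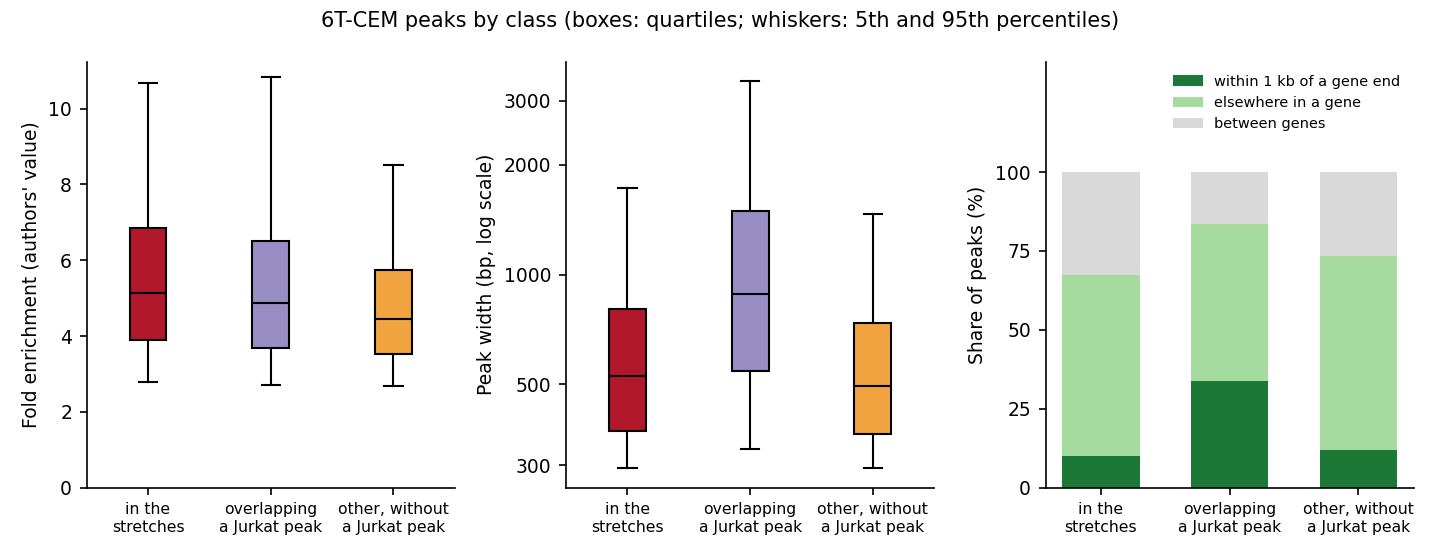
Fold enrichment (authors' value), peak width (bp, log scale) and position of 6T-CEM peaks in the stretches (n = 789), overlapping a Jurkat peak (n = 19188) and elsewhere without one (n = 15177). Boxes are quartiles with the median, and whiskers the 5th and 95th percentiles. The first class has a median fold of 5.14, against 4.86 and 4.46, and a median width of 528 bp, against 882 and 494 bp. Within 1 kb of a gene end lie 10.1% of its peaks, against 33.7% and 12.0%.

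By position, 80 of the 789 lay within 1 kb of an end of a protein-coding gene, 10.1% (8.12 to 12.5), against 33.7% of shared peaks, 12.0% of other unshared peaks and 23.8% of all. The interval treats the peaks as independent, although they stand in 52 stretches of 1 library, so it is not used to compare the classes. Without Jurkat replicate 1 the share was 16.8%, and without replicate 2 it was 7.09%. Another 451 (57.2%) lay in a gene away from its ends, and 258 (32.7%) between genes, against 16.6% of shared and 26.7% of other unshared peaks. Of the 258, 78 (30.2%) overlapped a long non-coding RNA gene, against 31.1% and 26.9%. For the 451 in a gene away from its ends, the longest protein-coding gene over each peak had a median length of 276.3 kb. In shared and other unshared peaks of that kind it was 97.6 and 112.7 kb. The rule keeps only gaps of 500 kb or more with 10 or more peaks. It can thereby favour long genes and peaks away from gene ends, which was not tested. Single genes also held many of the peaks, with 38 at DAB1. Peaks near gene ends had a lower median fold, 3.91, than those away from them, 5.36. In shared peaks these were 4.61 and 4.91, and in other unshared peaks 3.91 and 4.56.

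The stretches overlap 347 protein-coding genes, 278 wholly. Of those 278, 64 had a 6T-CEM peak within 1 kb of an end, 23.0% (18.2 to 28.4), whereas over all 19974 genes the share was 41.3% for 6T-CEM, 37.9% for Jurkat replicate 1 and 34.0% for replicate 2. The rule leaves genes that hold a Jurkat peak out of the 278, so the 23.0% and the 41.3% are shares of unlike sets. Genes with such a 6T-CEM peak and no Jurkat peak there were 6.47% of all 19974. The overlapped genes had a median length of 41.6 kb, against 24.2 kb for all, and 15 of them (4.32%) were 500 kb or longer, against 1.57%. A long gene is more likely to overlap a stretch, and the median of the 278 wholly inside was 31.5 kb. A peak lay over the start site of 26 genes, with folds of 2.47 at NXPE3 to 10.3 at ZNF93. In the 250 bases before these 26 starts the median ratio of observed to expected CpG was 0.826, against 0.615 for the 265 other starts in the stretches and 0.859 for 3408 starts under both a 6T-CEM and a Jurkat peak. TGGGAA occurred in 19.2% (5 of the 26), 28.7% and 18.8% of them. GGAAGT occurred in 30.8% (8 of the 26), 21.1% and 29.4%, and in 21.4% of all windows. For CACNAG the shares were 19.2%, 31.7% and 29.5%, and for CACGCG 19.2%, 11.3% and 18.1%. CACGTG had 0%, 6.04% and 9.01%, and CAGCTG 19.2%, 14.7% and 11.4%. TGTGGT had 3.85%, 8.68% and 8.27%, and AGATAA 3.85%, 11.3% and 3.84%. With 26 windows in the first class, these shares rest on few matches.

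Beyond the borders the peak lists were counted in windows the rule did not count, although each begins at a Jurkat peak. In the 1 Mb on each side of the 52 stretches, 104 Mb counted per stretch, 6T-CEM had 1413 peaks (13.6 per Mb), and Jurkat replicates 1 and 2 had 679 and 955 (6.53 and 9.18 per Mb). That is 2.08 times replicate 1, where the whole lists differ 2.18 times, and 1.48 times replicate 2, where they differ 1.10 times. The flanks of 4 stretches meet another stretch, and with such bases left out and each peak counted once the ratios were 2.07 and 1.45. 6T-CEM had more than both Jurkat libraries beside 38 stretches and fewer than both beside 4. The same count was not made elsewhere in the genome, so no background stands beside it, and the 6T-CEM list is the longest. Jurkat replicate 2 had no peak beside 2 stretches, at DUSP6 and DOCK4. Inside the stretches 6T-CEM had 7.35 peaks per Mb over all, and in 25 stretches the density was higher than in the flanks, in 27 lower.

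**Figure D5:**
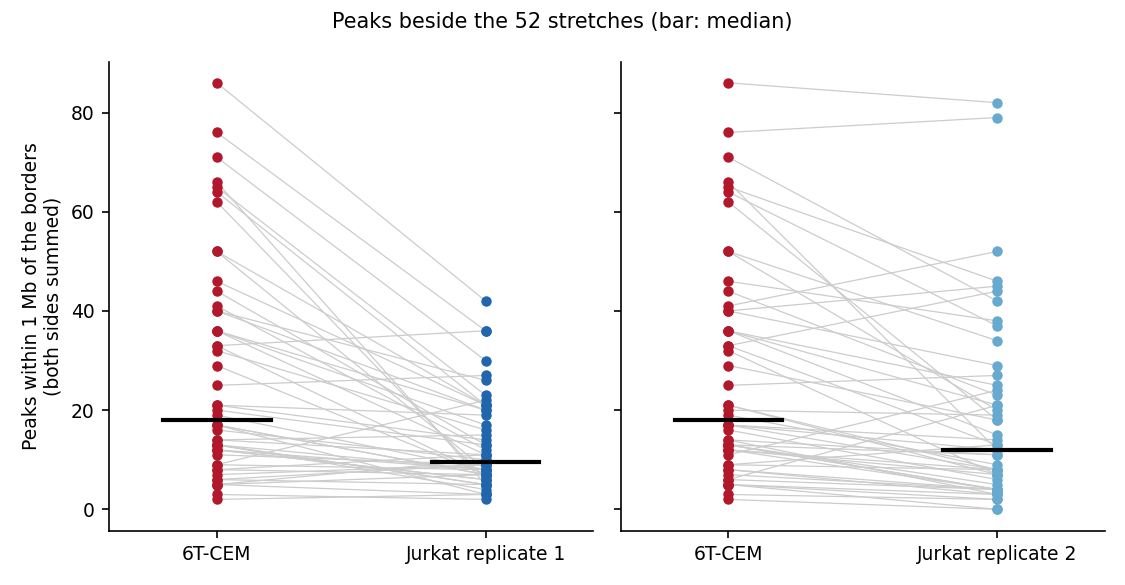
Number of peaks within 1 Mb of the borders of each of the 52 stretches, both sides summed, in 6T-CEM and in Jurkat replicate 1 (left) and replicate 2 (right), with lines joining values of the same stretch and bars at the medians. The median for 6T-CEM was 18, against 9.5 and 12 for Jurkat replicates 1 and 2.

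The Jurkat peaks that bound the stretches had median values near those of all Jurkat peaks. The 104 borders, 59 from replicate 1 and 45 from replicate 2, had a median fold of 4.81 and a median −log10 q of 6.84, against 4.62 and 6.90 over the pooled Jurkat lists. A −log10 q under 5 was found at 31 borders, and in 29.4% of all Jurkat peaks. At 80 borders the Jurkat peak overlapped a 6T-CEM peak.

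The same rule was also run with the libraries' roles changed. Jurkat replicate 1 peaks in gaps of 6T-CEM and Jurkat replicate 2 gave 0 stretches, and Jurkat replicate 2 peaks in gaps of 6T-CEM and replicate 1 gave 8 with 118 peaks, against 52 with 789 for 6T-CEM. These counts are not like for like. Each Jurkat count has a list of the same line among its bounds, and the 6T-CEM count has none. Against 1 list alone, replicate 2 had 70 stretches with 1137 peaks in gaps of replicate 1, and 6T-CEM had 157 with 2976. In gaps of replicate 2 alone, 6T-CEM had 92 stretches with 1406 peaks and replicate 1 had 2 with 20. The lists differ in length, with 35154, 16159 and 32097 peaks covering 34.3, 16.2 and 27.6 Mb in 6T-CEM and Jurkat replicates 1 and 2. When all lists were cut to the 16159 peaks with the lowest q, the 3 role counts were 18, 0 and 2 stretches. Those 18 stretches held 275 6T-CEM peaks, of which 128 were among the 789.

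In a bulk library a mark present in more of the cells and more of the mark per cell cannot be told apart. The part of list length in the number of stretches was not tested beyond these counts. The lists hold no read counts, so the depth behind each peak is unknown, and the intervals cover counting error only.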

How the data were processed

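H3K27ac peak lists of 6T-CEM (1 library) and Jurkat (2 libraries, whose labels do not say whether they are separate cultures) were used. The submitters' processing notes name Bowtie2 2.2.5, MACS2 2.2.7 and hg38. The design text speaks of CUT&Tag, the labels' extraction protocol of sonication and antibody. Each deposited list was called per sample and gives the authors' fold (a ratio), −log10 p and −log10 q, a score and the summit position. The sources used here do not give whether IgG served as control. Read depth is unknown.

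From these, gaps, overlaps (1 base or more), clusters (12.5 kb) and covered bases within 25 kb of gene ends were computed with Python 3.11.15, NumPy 2.4.6, pandas 2.3.3 and SciPy 1.17.1, and drawn with matplotlib 3.10.9. Genes were the 19974 protein-coding genes of RefSeq GRCh38.p14, the build of hg38, with start sites for 15812. The members, the lists and the roles of genes were chosen with earlier results of these data known. Named genes are HES1 and TLE1, up to 4 genes per stretch with the most covered bases, those at the borders, those nearest the 10 highest and 10 widest peaks, list genes in a stretch, and, chosen after their values were seen, the other genes grouped by role. On simulated lists, 177 of 177 stretches were recovered. Alternatives are given in the closing section. No test was run. Some items are not reported here.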

Additional observations from a re-analysis of the deposited data

How the results depend on the processing

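No paired analysis was possible because 6T-CEM has 1 library and no value comes from a test. Leaving out 1 Jurkat library gave 92 to 157 stretches, 1406 to 2976 peaks, a median fold of 4.56 to 5.07, a median width of 519.5 to 560.5 bp, 7.09 to 16.8% of peaks near a gene end, 4.67 to 10.4 peaks per Mb and 154 to 216 genes with a peak near an end, against 52, 789, 5.14, 528 bp, 10.1%, 7.35 and 64. With 6T-CEM peaks of −log10 q of 5 or more, there were 31 stretches, 471 peaks, a median fold of 5.78, 7.64% near an end and 28 genes. That limit on Jurkat alone gave 1262 peaks and 121 genes, and on all lists a median fold of 5.78. Lists of equal length gave 18 stretches, 275 peaks, a median fold of 6.70, a width of 866 bp, 5.45% and 14 genes. At least 5 peaks per stretch gave 164 stretches and 1513 peaks, and at least 20 gave 10 and 263. A gap of 1 Mb gave 502 peaks. A window of 2.5 kb gave 12.7% near an end. The count of 8 stretches for Jurkat replicate 2 became 22 with gaps of 250 kb, 1 with 1 Mb, 48 with 5 peaks and 1 with 20. Chosen after the data were seen, the HES1 stretch held 32 peaks with the limit on q and 23 at equal length, and was not kept at 1 Mb, and TLE1 held 14 and 10 and was not kept at 20 peaks.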
